A study of Mus musculus with 50 samples.

Results

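The genes of mouse chromosome 6 were followed through wild type embryonic stem cells and 2 lines that lack NSD1. Members were the rows of the RNA count tables on chromosome 6 whose counts summed to at least 60 over the 6 libraries, and 227 of the 37310 genes in the tables met this rule. The tables hold 1936 chromosome 6 genes, of which 915 had at least 1 count. The chromosome was chosen because its values were already known to be shifted in one line, so the shift is given below as a description, with no test.

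RNA was sequenced from J1 cells, an embryonic stem cell line of strain 129S4/SvJae, all untreated and grown on gelatin in medium with serum and the cytokine LIF. The groups were wild type cells, the NSD1-/- line KO1 and the NSD1-/- line KO2, with 2 libraries each. How the lines were derived is not in the labels, nor is whether a group's libraries were separate cultures, so the spread behind the p-values is that of these libraries alone and may be technical. NSD1 is an enzyme that methylates lysine 36 of histone H3, and the study examined histone marks at enhancers.

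Mouse chromosome 6 carries the Hoxa cluster of homeobox genes, which pattern the body axis, and the imprinted domain around Mest, whose paternal copy is the active one. It also carries Nanog and its neighbours, which are active in pluripotent cells, and the genes of several abundant metabolic enzymes. The counts were made with a strand setting and were read here as fragments from the strand opposite the counted gene. This is because genes known to be abundant, such as Gapdh with 44 to 75 counts a library, had few counts by their symbol. The sources used here do not state whether the library kit marks strand in that orientation, so every name of a gene opposite rests on this reading. Each member is therefore named by the counted gene with the gene that overlaps it on the other strand, where there is one: Gm15401 opposite Tcf7l1 counts fragments on the strand of Tcf7l1. Of the members, 107 had such a gene opposite and 120 had none. Having none means that no gene on the other strand shared at least 50 exon bases. For these members, the source of the fragments cannot be told apart. It may be the gene itself, an annotated neighbour on the other strand or an unannotated transcript. The spans of Tpi1, Emg1 and Gm15624, for example, overlap those of Spsb2, Lpcat3 and Dctn1 on the other strand.

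The genes opposite 4 of the members that the results turn on are shown by their promoters, the 250 bases before the start of transcription in the RefSeq promoter table for GRCm38.p6, written 5′ to 3′ with each CG dinucleotide in capitals. Tcf7l1 (chr6:72789046-72789295, minus strand) and Igf2bp3 (chr6:49214955-49215204, minus strand) lie opposite Gm15401 and 2410003K15Rik, which departed from the rest of the chromosome in KO1. Mest (chr6:30737800-30738049, plus strand) lies opposite Copg2, which was low in KO2, and Hoxa7 (chr6:52218574-52218823, minus strand) opposite 2700086A05Rik, which was low in both lines. The exons of 2410003K15Rik and Igf2bp3, and those of the last 2 pairs, overlap only at their ends, while Gm15401 lies within Tcf7l1. Mest has 3 starts in the table, and the one with the most CG dinucleotides is shown.
Tcf7l1: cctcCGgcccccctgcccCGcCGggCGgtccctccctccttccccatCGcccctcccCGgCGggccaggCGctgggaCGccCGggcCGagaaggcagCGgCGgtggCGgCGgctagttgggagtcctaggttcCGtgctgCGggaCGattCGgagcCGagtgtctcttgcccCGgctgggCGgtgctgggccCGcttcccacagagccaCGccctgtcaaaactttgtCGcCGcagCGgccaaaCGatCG
Mest: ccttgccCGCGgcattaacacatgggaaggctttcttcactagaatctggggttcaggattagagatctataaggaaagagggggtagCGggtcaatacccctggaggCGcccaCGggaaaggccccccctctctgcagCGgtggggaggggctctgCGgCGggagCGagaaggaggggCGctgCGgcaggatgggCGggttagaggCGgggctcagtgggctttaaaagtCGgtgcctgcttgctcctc
Igf2bp3: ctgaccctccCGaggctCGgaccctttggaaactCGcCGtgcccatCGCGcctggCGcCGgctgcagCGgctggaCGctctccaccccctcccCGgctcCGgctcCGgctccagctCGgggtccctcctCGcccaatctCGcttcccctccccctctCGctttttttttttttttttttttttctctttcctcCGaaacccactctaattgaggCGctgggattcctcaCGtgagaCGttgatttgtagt
Hoxa7: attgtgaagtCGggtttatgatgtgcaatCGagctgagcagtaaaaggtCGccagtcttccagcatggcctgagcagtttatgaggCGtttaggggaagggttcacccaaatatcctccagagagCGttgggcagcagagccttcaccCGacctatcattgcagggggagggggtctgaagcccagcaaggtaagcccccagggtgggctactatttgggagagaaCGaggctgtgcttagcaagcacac

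These promoters held 29 CG dinucleotides for Tcf7l1, 21 for Igf2bp3, 14 for Mest and 7 for Hoxa7. CG reads the same on both strands, and 92.3% of the promoters of 27025 genes in the table held at least 1. As many as in Tcf7l1 or more were found in 7.62% of them, and as many as in Hoxa7 or more in 48.6%. The members stood for 223 transcripts, taking the gene opposite where there was one, and 141 had a promoter in the table. The median over these was 16 CG dinucleotides, from 0 to 47, against 6 over all genes. The members were chosen by their counts and the other genes were not, so the difference in CG content was not tested.

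The 6 libraries held 1150089 to 1285487 counts, of which 32.3% to 37.2% fell on AY036118, a ribosomal RNA locus. By counted symbol, which under this reading is not the strand of their transcripts, the 10 embryonic stem cell markers summed to 319 to 349 counts in wild type, 343 to 351 in KO1 and 344 to 349 in KO2, none at 0, and no counted gene was paired with any of them on the other strand. Nsd1, the targeted gene, had 21 and 25 counts in wild type, with 55 and 38 in KO1 while KO2 had 27 and 21. Since the setting reads the other strand, these counts do not check the genotypes. The 10 feeder fibroblast markers, 3 of them at 0, summed by counted symbol to 86 to 89 counts in wild type, 102 to 119 in KO1 and 81 to 95 in KO2. By the gene opposite, matched for 5 of them, they summed to 1745 to 1875, 1730 to 1732 and 1463 to 1628. Neuroectoderm markers by counted symbol, matched for 3 of 4, ran from 178 to 191 in wild type, 218 to 223 in KO1 and 167 to 204 in KO2. The 3 mesoderm markers had 18 counts in both wild type libraries, 5 to 10 in KO1 and 20 to 25 in KO2, and the 5 primitive endoderm markers, 3 at 0, had at most 10 in any library. The part of these markers in the results was not tested.

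The chromosome as a whole was lower in KO1 and close to wild type in KO2. With AY036118 left out of the total, the members held 5.16% and 5.14% of the counts of the wild type libraries. The shares were 3.78% and 3.82% for KO1, and for KO2 4.87% and 4.99%. A share also depends on the counts of all other genes. The 95% Wilson intervals cover counting error only. They ran from 3.74% to 3.82% and from 3.77% to 3.86% in KO1. In wild type they ran from 5.11% to 5.21% and from 5.09% to 5.19%. Those of KO2, from 4.82% to 4.92% and from 4.95% to 5.04%, lay below those of wild type. Both KO1 libraries thus lay below the other 4, and the ratio of the mean shares to wild type was 0.738 for KO1 and 0.958 for KO2. In bulk samples such as these, fewer cells with a transcript and less of it per cell cannot be told apart.

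**Figure D1:**
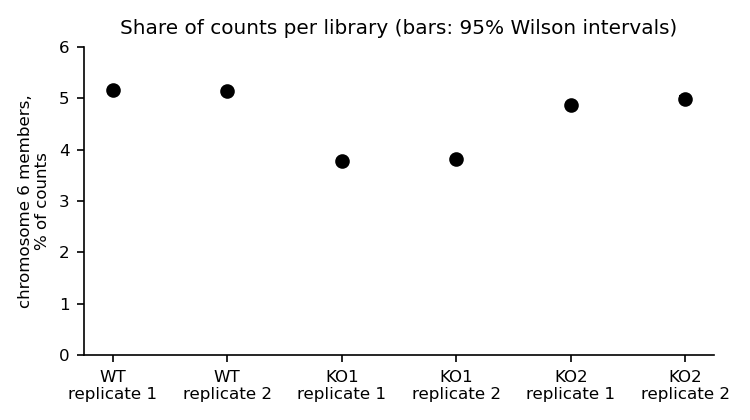
Share of each library's counts, AY036118 left out, that fell on the 227 chromosome 6 members, in percent on an axis from 0, for the 2 libraries of each group. Bars are 95% Wilson intervals and are smaller than the points, and the KO1 libraries at 3.78% and 3.82% lie below the wild type libraries at 5.16% and 5.14%.

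The same was seen gene by gene. The median log2 fold change of the members was -0.42 in KO1 against wild type, with quartiles of -0.69 and -0.14, a ratio of 0.747 at the median. It was -0.04 in KO2, with quartiles of -0.30 and 0.20, and -0.41 in KO1 against KO2. In KO1, 190 of 227 members had a log2 fold change below 0, against 49.3% of all 5034 tested genes, and in KO2 126 did, against 52.1%. Both lines were set against the same wild type libraries, so their values share that source.

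Per library, the median log2 ratio of the members to mean wild type was 0.02 and -0.02 in the wild type libraries. It was -0.43 and -0.44 for KO1, and for KO2 -0.07 and -0.04. The pooled SD of these medians within groups was 0.0218, which describes these libraries only. The wild type medians lie around 0 because their own mean is the reference. Among the 18 chromosomes other than 6, 11 and the mitochondrial one, the median log2 fold change ran from -0.07 to 0.08 in KO1 and from -0.13 to 0.03 in KO2. Chromosome 11 stood at 0.06 in KO1 and 0.40 in KO2.

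**Figure D2:**
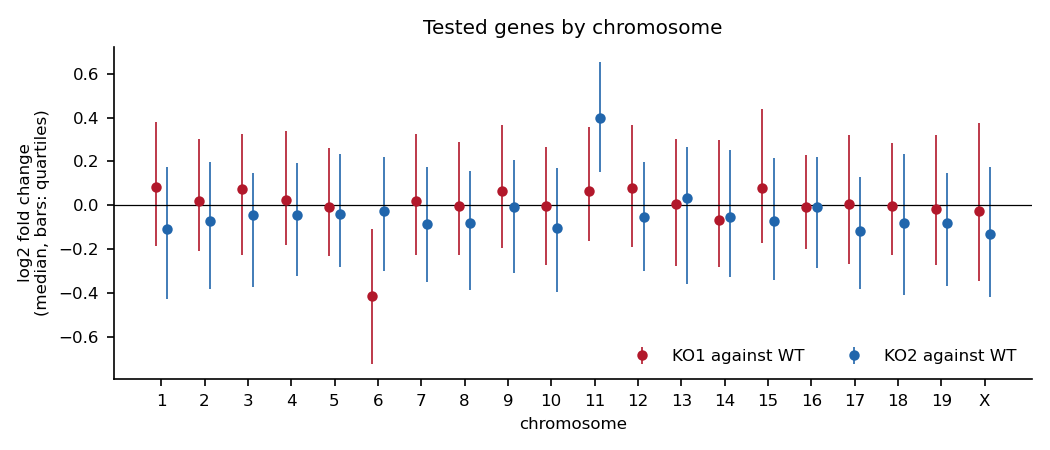
Median over each chromosome's tested genes of the log2 fold change (points) with the quartiles over genes (bars), for KO1 against wild type and KO2 against wild type. Chromosome 6 stands at -0.42 in KO1, where the 18 other chromosomes without chromosome 11 run from -0.07 to 0.08.

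The lower level in KO1 ran along the whole length of the chromosome. Members were ordered by lowest start, from 4026899 to 148939953 in mm9, and taken in 15 windows of 10 Mb. The KO1 median was below 0 in all 15. In the 9 windows with at least 10 members it ran from -0.61 to -0.29 in KO1 and from -0.16 to 0.03 in KO2. The lowest of these KO1 medians, -0.61, was that of the 15 members from 40 to 50 Mb, and the one nearest to 0, -0.29, was shared by the windows from 70 to 80 Mb and from 110 to 120 Mb. The 6 windows with 3 to 7 members ran from -0.89 to -0.31 in KO1 and from -0.28 to 0.38 in KO2, each on few genes.

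**Figure D3:**
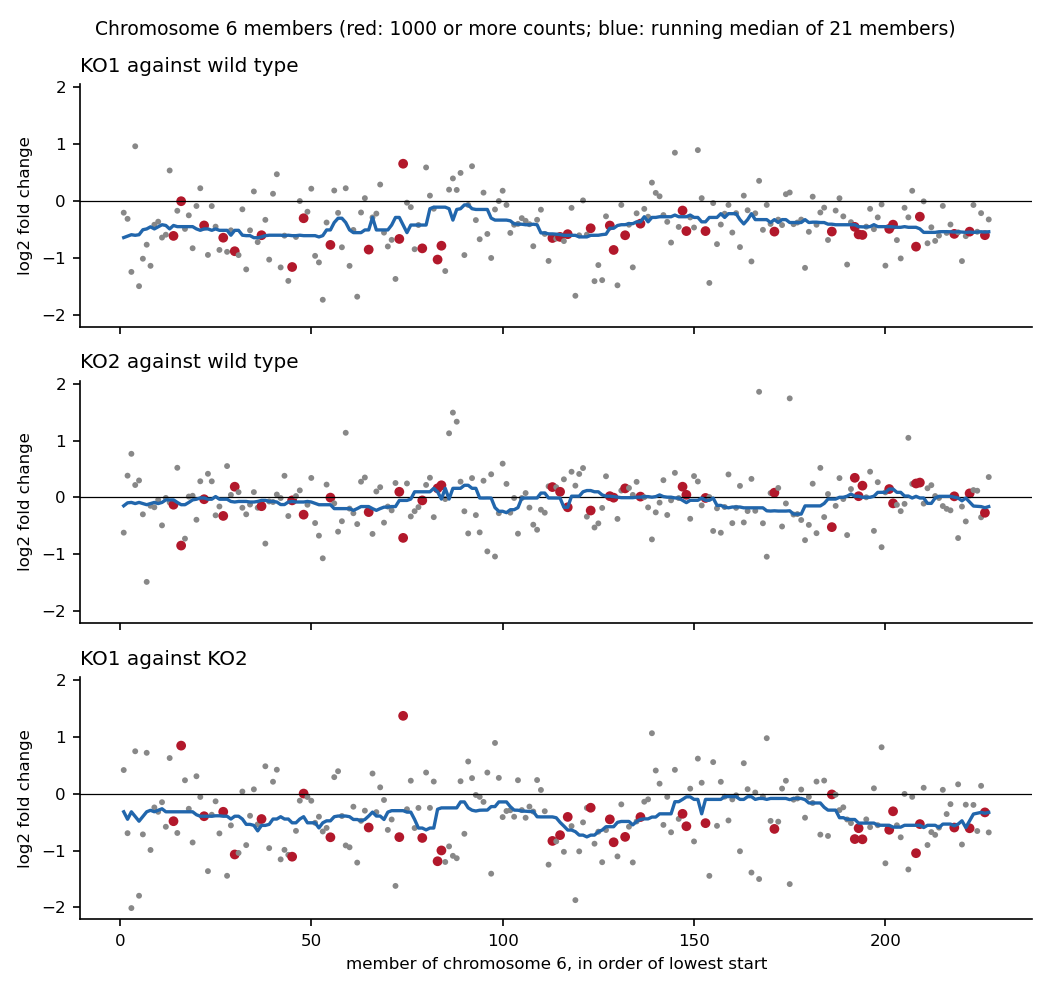
Log2 fold change of each of the 227 members in their order along chromosome 6, in KO1 against wild type, KO2 against wild type and KO1 against KO2. Red points have at least 1000 counts over the 6 libraries, and the blue running median of 21 members stays below 0 along the chromosome in KO1 while that of KO2 runs near 0.

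The shift in KO1 did not rest on a few genes or one kind of member. Members with a gene opposite had a KO1 median of -0.56 and those without one -0.33. The 2 kinds also differed elsewhere in the genome: genes with at least 60 counts on the 18 other chromosomes had medians of -0.07 with a gene opposite and 0.11 without. Against the same kind of gene on other chromosomes, the medians of the members differed by -0.49 and -0.44. In KO2 these differences were 0.02 and -0.04. Members on the plus strand, 112 in number, had a KO1 median of -0.44, and the 115 on the minus strand -0.42.

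The shift was also seen at each abundance. The KO1 median was -0.40 for the 91 members with 60 to under 150 counts, -0.41 for the 47 with 150 to under 300, -0.32 for the 51 with 300 to under 1000 and -0.58 for the 38 with at least 1000. Against the same bands on other chromosomes, these medians differed by -0.50, -0.44, -0.30 and -0.48. The shift was smaller for the 22 members with 300 to under 1000 counts and no gene opposite. Their KO1 median was -0.16, a difference of -0.21, and in KO1 against KO2 it was 0.05, against 0.21 on other chromosomes. By arrangement with the gene opposite, the KO1 median was -0.60 for the 23 head to head members, -0.54 for the 51 tail to tail, -0.54 for the 24 within their partner and -0.74 for the 9 that contain it. Of the members with a gene opposite, 65 lay opposite another member, so some of these values come from the same pair of genes. Members with a gene opposite held 84.2% of the members' counts.

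**Figure D4:**
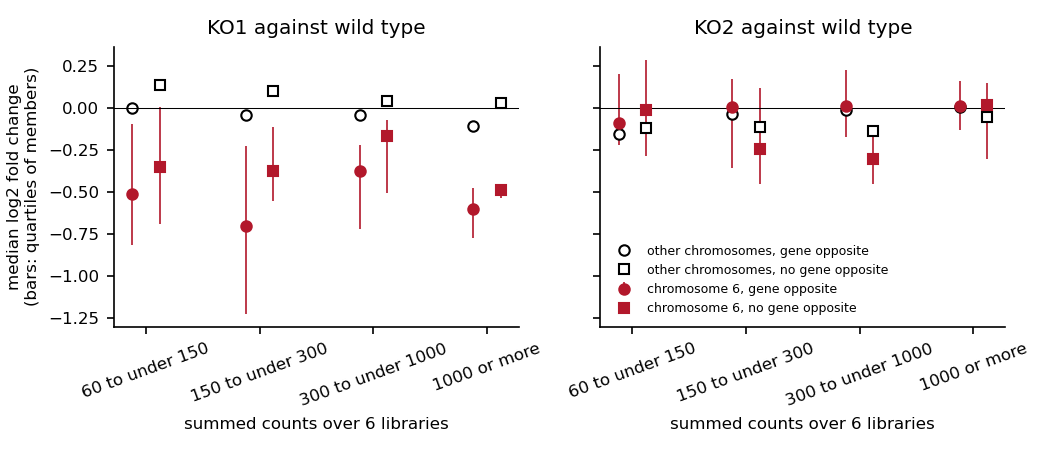
Median log2 fold change in KO1 (left) and KO2 (right) of chromosome 6 members (red, bars are quartiles over members) and of genes on the 18 other chromosomes (open symbols), by summed counts and by whether a gene lies opposite. In KO1 each red median lies below its open counterpart, as for members with a gene opposite and at least 1000 counts, at -0.60 against -0.10.

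Since single genes were tested in the contrast that led to the choice of the chromosome, the counts of called members only describe it. In KO1, 62 members were called lower than wild type at an adjusted p under 0.05, against 6.34% of all tested genes, and 3 were called higher, against 3.46%. In 142 members both KO1 libraries lay below both wild type libraries, which held for 26.4% of all tested genes. In KO2, 14 members were called lower, against 3.97%, and 7 higher, against 5.01%. Between the lines, 76 members were called lower in KO1 than in KO2, against 11.4%, and 6 higher, against 7.93%.

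The 38 members with at least 1000 counts, where counting error is smallest, were close together in KO1, with quartiles of -0.66 and -0.46. Of these, 37 had a log2 fold change below 0, 34 were called lower, and 36 had both KO1 libraries below both wild type libraries. The most abundant member, Gm15884 opposite Phb2, an inner mitochondrial membrane protein, had 4425 and 4598 counts in wild type against 3313 and 3205 in KO1, and KO2 had 4649 and 4972. Its KO1 libraries lay apart from the rest, with a log2 fold change of -0.54 ± 0.0452 (SE, adjusted p = 5.22e-10), and the KO2 value of 0.08 did not pass (adjusted p = 0.284).

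Gm5577, opposite the linker histone gene H1fx, had 2956 and 3043 counts in wild type, with 1976 and 2084 in KO1 while KO2 had 3035 and 3439, a log2 fold change of -0.63 ± 0.0521 in KO1 (adjusted p = 3.63e-10). Irf5, opposite the nuclear import receptor Tnpo3, had 1615 and 1661 counts in wild type, 1156 and 1090 for KO1 and 1446 and 1572 for KO2, or -0.61 in KO1. Gm16896, opposite the semaphorin receptor Plxna1, had 1235 and 1230, 837 and 888, and 1116 and 1082 in the same order, or -0.58. Of these, Gm5577 and Irf5 also departed downward from the chromosome in KO1, by -0.21 (adjusted p = 0.00672) and -0.20 (adjusted p = 0.0213), and neither kept that call with the shift taken by class. The KO2 values of Gm15884, Gm5577, Irf5 and Gm16896, between -0.17 and 0.10, did not pass the test. Gm17629, opposite Ezh2, the Polycomb enzyme that methylates lysine 27 of histone H3, had 1250 and 1156 counts in wild type against 846 and 818 in KO1, and KO2 had 1004 and 1176, or -0.60 in KO1.

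The abundant members not called lower in KO1 included 3 that were singled out after their values were seen. Recql, opposite Pyroxd1, had a log2 fold change of -0.27 (adjusted p = 0.0996). Copg2, opposite Mest, stood at -0.001 and Gm15401, opposite Tcf7l1, was higher, at 0.66. In KO2, 8 of the 38 were called, against 8.98% of all tested genes in either direction. That share covers genes of every abundance, and genes with many counts are called more readily. It is thus no measure for these 38, and neither are the shares given for KO1. The share called among equally abundant genes on other chromosomes is not given here.

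To find the genes that departed from the common shift, the median of each chromosome was entered as an offset in the same fit, so that each gene was tested against its own chromosome. A departure is thus the log2 fold change less the chromosome's median, -0.42 in KO1 and -0.03 in KO2 over the 259 tested genes of chromosome 6. In KO1, 8 members departed upward, against 3.32% of all tested genes, and 26 downward, against 6.24%. In KO2, 9 departed upward, against 4.21%, and 12 downward, against 2.86%. Between the lines 19 departed upward in KO1, against 6.63%, and 31 downward, against 11.9%.

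These counts depend on what the common shift is taken to be. With a shift for each class of gene (a gene opposite or none, by abundance), an alternative chosen after seeing the data, 9 members departed upward and 12 downward in KO1, and 12 of the 26 downward calls were shared. Of 14 abundant members that departed downward, 4 did so by class. The calls in KO2 were 7 and 10. These counts, and those under the other alternatives below, stand without the share of all tested genes under the same setting. They only show how the calls depend on the setting. The rule for naming took up to 10 departing members each way in each comparison, with at least 5 CPM (counts scaled to library size) in the higher group and no overlap between its libraries, which gave 54 departures in 39 genes. Of these, 21 passed the threshold under every alternative run, 7 of 15 in KO1, 6 of 19 in KO2 and 8 of 20 between the lines.

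Genes that stood above the chromosome in KO1 were led in certainty by Gm15401, opposite Tcf7l1, a transcription factor that represses Wnt targets in embryonic stem cells. Gm15401 (chr6:72579282-72587711 in mm9, plus strand) had 468 and 432 counts in wild type, with 699 and 788 in KO1 while KO2 had 277 and 276, so no 2 groups overlapped, and the lines lay on opposite sides of wild type. It rose by a log2 fold change of 0.66 ± 0.0838 in KO1 (adjusted p = 1.55e-06) and fell by 0.71 on the log2 scale in KO2 (adjusted p = 3.3e-06). The departures were 1.07 in KO1 (adjusted p = 1.49e-10) and -0.68 in KO2 (adjusted p = 1.26e-05), and KO1 differed from KO2 by a departure of 1.76 (adjusted p = 7.61e-15). All 3 passed under every alternative. The row of Tcf7l1 counts the strand of Gm15401 under this reading. It had 8 and 9 counts in wild type, 13 and 19 for KO1 and 2 and 8 for KO2. Its sum of 59 left it just outside the members.

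Atg7, the enzyme that starts the conjugation steps of autophagy, had 35 and 40 counts in wild type against 70 and 72 in KO1, and KO2 had 46 and 56. It was among the 3 members called higher in KO1, with a log2 fold change of 0.85 ± 0.21 (adjusted p = 0.00553), a departure of 1.27 (adjusted p = 8.05e-05). BC060267 had 34 and 33 counts in wild type, with 70 and 61 in KO1 while KO2 had 37 and 45, a log2 fold change of 0.90 ± 0.22 in KO1 (adjusted p = 0.0052). Neither was called in KO2, at 0.43 and 0.28. With Gm15401 these were the members called higher in KO1. Atg7 and BC060267 have no gene opposite, and both KO1 departures held under every alternative.

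Zfp746, a zinc finger repressor, had 38 and 30 counts in wild type, 53 and 46 for KO1 and 29 and 42 for KO2. Its log2 fold change in KO1, 0.47, did not pass (adjusted p = 0.245), but its departure of 0.89 did (adjusted p = 0.0138, up to 0.151 over the alternatives). Gm20423, Wdr54 opposite Rtkn, and Copg2 opposite Mest also departed upward in KO1, by 0.61, 0.56 and 0.41, with libraries that overlapped wild type.

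Below the chromosome in KO1, a departure with many counts behind it was that of 2410003K15Rik, opposite Igf2bp3, an RNA-binding protein of embryonic tissues. It lies at chr6:49023794-49036750 in mm9, on the plus strand, and had 2083 and 2059 counts in wild type against 954 and 988 in KO1, and KO2 had 1912 and 2113. The KO1 libraries lay under the lowest of the others by a wide margin, a log2 fold change of -1.16 ± 0.0568 (adjusted p = 2.69e-15) and a departure of -0.74 (adjusted p = 1.11e-10). In KO2 the value was -0.05 (adjusted p = 0.617). The exons of the 2 genes overlap by 1531 bases at their ends. Igf2bp3 by the counted symbol, which under this reading counts the strand of 2410003K15Rik, was a member of the RNA binding list below.

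Il12rb2, a subunit of the interleukin 12 receptor, had 148 and 174 counts in wild type, with 62 and 43 in KO1 while KO2 had 115 and 119. All 3 groups were apart, and Il12rb2 fell by 1.68 on the log2 scale in KO1 (adjusted p = 1.57e-08) and by 0.47 in KO2 (adjusted p = 0.0348). Its departure was -1.27 in KO1 (adjusted p = 4.97e-06), and -0.44 in KO2 did not pass (adjusted p = 0.0584). Zfp775, a zinc finger protein, had 139 and 134 counts in wild type, 53 and 55 for KO1 and 105 and 114 for KO2, with a KO1 departure of -0.99 (adjusted p = 0.00011). Neither has a gene opposite, and both KO1 departures held under every alternative.

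A pair of members meeting tail to tail, Loxl3 and Htra2, were both low in KO1. Loxl3 encodes a lysyl oxidase of the extracellular matrix and Htra2 a mitochondrial protease. Each lies opposite the other, so under the reading used here Loxl3 counts the strand of Htra2 and Htra2 that of Loxl3. Htra2 shares 535 exon bases with Loxl3 and 463 with Aup1, which lies on the same strand as Loxl3. Fragments of Loxl3 and Aup1 thus cannot be told apart in the counts of Htra2. Loxl3 had 701 and 696 counts in wild type against 379 and 339 in KO1, and KO2 had 748 and 824, a KO1 departure of -0.61 (adjusted p = 1.76e-06). Htra2 had 721 and 848, 513 and 441, and 894 and 936 counts in the same order, a KO1 departure of -0.37 (adjusted p = 0.00171) that lost its call by class. In KO2 the libraries of both genes lay above wild type, and the departure of Htra2, 0.24, passed the test (adjusted p = 0.0358, up to 0.526 over the alternatives), while that of Loxl3, 0.19, did not (adjusted p = 0.103).

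Another 7 members that departed downward in KO1 had fewer counts. Gm14573, opposite the histone deacetylase gene Hdac11, had 31 and 24 counts in wild type, with 11 and 7 in KO1 while KO2 had 28 and 36, a departure of -1.25 (adjusted p = 0.0273). Gm4876, opposite the focal adhesion gene Tes, had 51 and 41, 16 and 18, and 55 and 59 counts, a departure of -1.08 (adjusted p = 0.00999). 0610040F04Rik, opposite the transcriptional repressor gene Bhlhe40, had 52 and 63, 23 and 20, and 44 and 45 counts, a departure of -1.07 (adjusted p = 0.00446). In each of these the KO1 libraries lay below both other groups.

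AC140192.1, opposite the zinc finger gene Zfp248, departed by -1.03, Gm15737, opposite the secreted protease gene Adamts9, by -0.98, and E230016M11Rik, opposite the stress response gene Gadd45a, by -0.72 (adjusted p = 0.036), a call lost by class. Zyx, a focal adhesion gene opposite the ephrin receptor gene Epha1, departed by -0.79 (adjusted p = 0.0399, up to 0.433 over the alternatives, and 0.097 by class). Over the alternatives the adjusted p rose to 0.278 for Gm14573, 0.141 for Gm4876, 0.0807 for 0610040F04Rik, 0.137 for AC140192.1 and 0.0662 for Gm15737. These departures are thus less certain than those above.

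In the Hoxa cluster, 1 member was lower in both lines. 2700086A05Rik (chr6:52125216-52165075 in mm9, plus strand), tail to tail with Hoxa7, had 55 and 60 counts in wild type, 16 and 20 for KO1 and 25 and 30 for KO2. Neither line overlapped wild type, and 2700086A05Rik fell by 1.74 on the log2 scale in KO1 (adjusted p = 2.24e-05) and by 1.07 in KO2 (adjusted p = 0.00288). The departures were -1.32 in KO1 (adjusted p = 0.000936) and -1.04 in KO2 (adjusted p = 0.00544, up to 0.141 over the alternatives). The difference between the lines did not pass, with a departure of -0.28 (adjusted p = 0.582).

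The imprinted domain gave the clearest low value in KO2. Copg2, a coatomer subunit gene opposite Mest (chr6:30697554-30846794 in mm9, minus strand), had 1070 and 1095 counts in wild type, with 1161 and 1105 in KO1 while KO2 had 574 and 638. The KO1 counts lay at the wild type level once scaled, at -0.001 ± 0.0599 (adjusted p = 0.997), where the chromosome stood at -0.42, and the departure of 0.41 passed (adjusted p = 1.83e-05). In KO2 Copg2 fell by 0.85 on the log2 scale (adjusted p = 6.02e-11), a departure of -0.82 (adjusted p = 3.39e-10). Between the lines the departure was 1.23 (adjusted p = 7.61e-15), and it and the KO2 departure held under every alternative.

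The other member of the pair, Mest, which counts the strand of Copg2, had 49 and 67 counts in wild type, 59 and 49 for KO1 and 62 and 106 for KO2. Its libraries overlapped in both comparisons and it was called in neither, at -0.17 and 0.52. The exons of the 2 genes overlap by 904 bases at their ends, and a count table does not tell which bases of Copg2 the fragments covered. Of 19 imprinted symbols listed, these were the 2 with a member.

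**Figure D5:**
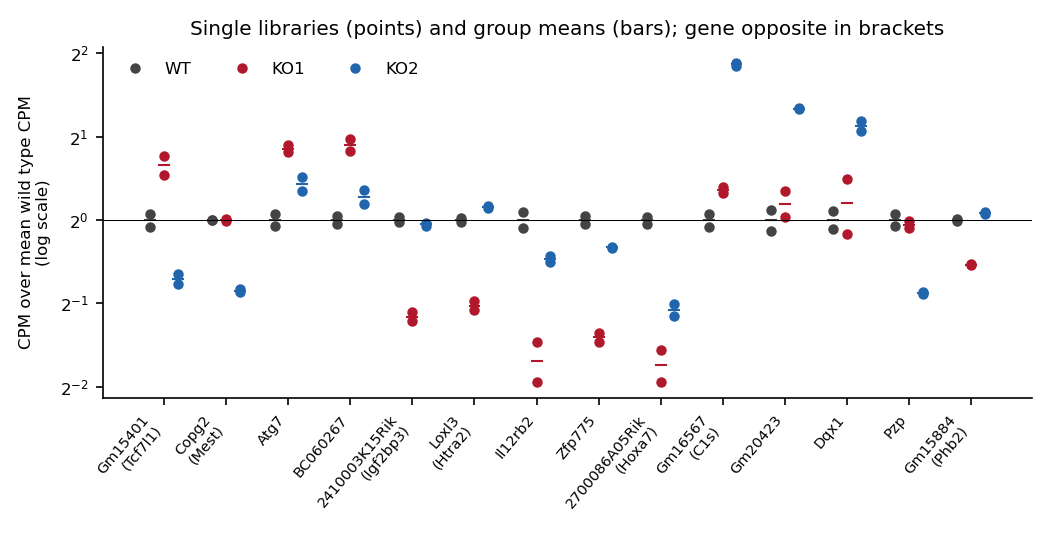
CPM in each library over the mean wild type CPM, on a log scale, for 14 named members, with points for the 2 libraries of each group and short bars for the group means. Gm15401 opposite Tcf7l1 lies above wild type in KO1 and below it in KO2, Copg2 opposite Mest is low in KO2, and Gm16567, Gm20423 and Dqx1 are high in KO2, while Gm15884 opposite Phb2 shows the common shift in KO1.

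In KO2 the largest departure was Gm16567, opposite the complement protease gene C1s (chr6:124480929-124492328 in mm9, plus strand), with 34 and 39 counts in wild type against 51 and 47 in KO1, and KO2 had 130 and 137. It rose by a log2 fold change of 1.86 ± 0.194 (adjusted p = 7.4e-09), a departure of 1.89 (adjusted p = 1.48e-08). In KO1 its log2 fold change of 0.36 did not pass (adjusted p = 0.363), and the departure of 0.77 did (adjusted p = 0.0228, up to 0.155 over the alternatives). The lines differed, with a departure of -1.11 for KO1 against KO2 (adjusted p = 1.5e-05).

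A neighbourhood of 3 members in a row was high in KO2. Dqx1, a helicase family gene (chr6:83007838-83017204 in mm9, plus strand), had 31 and 37 counts in wild type, with 51 and 31 in KO1 while KO2 had 69 and 81. Tlx2, a homeobox gene (chr6:83018311-83020287, minus strand), had 9 and 17, 20 and 16, and 42 and 32 counts. Gm20423 (chr6:83024593-83026110, minus strand) had 87 and 107, 131 and 102, and 236 and 256 counts. In all 3 genes the KO2 libraries lay above every other library.

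Their log2 fold changes in KO2 were 1.13 ± 0.23 for Dqx1 (adjusted p = 0.000865), 1.49 ± 0.348 for Tlx2 (adjusted p = 0.0026) and 1.33 ± 0.138 for Gm20423 (adjusted p = 1.37e-08). None has a gene opposite. The departures of Dqx1 and Gm20423 held under every alternative, and that of Tlx2, 1.52, reached an adjusted p of 0.082. On either side of the 3 genes, Aup1 (36 and 36 counts in wild type, 37 and 34 in KO2) and Ccdc142 (14 and 13, and 15 and 18) were not called in KO2, at -0.03 and 0.28. In KO1 the 3 genes stood at 0.20 for Dqx1, 0.40 for Tlx2 and 0.20 for Gm20423, none of them called.

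Other upward departures in KO2 were small or rested on few counts. Tpi1, a glycolytic enzyme gene, had 4 and 8 counts in wild type, 11 and 3 for KO1 and 18 and 23 for KO2, a departure of 1.77 ± 0.522 (adjusted p = 0.0204, up to 0.172 over the alternatives). Gm16749 had 955 and 922, 739 and 698, and 1057 and 1349 counts, with a departure of 0.37 in KO2 (adjusted p = 0.000599) that held under every alternative. Gm16723, opposite the coatomer gene Copg, departed by 0.21 and lost its call by class, as did Htra2.

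Further members departed downward in KO2. Pzp, a protease inhibitor gene, had 83 and 94 counts in wild type against 88 and 90 in KO1, and KO2 had 47 and 50, a departure of -0.85 (adjusted p = 0.00338). Emg1, a ribosome biogenesis gene, had 38 and 40, 37 and 41, and 16 and 22 counts, a departure of -1.01 (adjusted p = 0.0228). In both genes the KO1 libraries overlapped wild type and stood above the rest of the chromosome by 0.36 for Pzp and 0.35 for Emg1, neither past the test. The departures between the lines, 1.20 for Pzp (adjusted p = 1.31e-05) and 1.36 for Emg1 (adjusted p = 0.000655), held under every alternative. Those in KO2 reached an adjusted p of 0.0636 for Pzp and 0.219 for Emg1 over theirs.

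Gm15594, opposite Cttnbp2, had 32 and 38 counts in wild type, with 23 and 20 in KO1 while KO2 had 12 and 13. Its departure in KO2 was -1.46 (adjusted p = 0.00284, up to 0.0891 over the alternatives). Iffo1, of the intermediate filament family, had 230 and 218, 179 and 145, and 149 and 165 counts. It fell by 0.54 on the log2 scale in KO1 and by 0.52 in KO2, both called. In KO1 that was near the chromosome's median. In KO2 it was a departure of -0.49 (adjusted p = 0.00898, up to 0.121 over the alternatives). Gm10244, opposite the ubiquitin ligase gene Mkrn1, had 1165 and 1003, 737 and 718, and 865 and 877 counts, a departure of -0.30 (adjusted p = 0.00851, up to 0.163 over the alternatives). Nrip2 and 1700003E16Rik, at -0.56 and -0.92, lost their calls by class.

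Groups of genes on the chromosome are described next. The lists were chosen with results of these data known, and each is given by counts and medians only, with no comparison between lists. They stand beside 6.34% of all tested genes, and 27.3% of the 227 members, called lower in KO1. Members with a gene opposite had a lower KO1 median than the others across the chromosome, as given above. Of 42 chromatin and transcription symbols, 10 were members by the counted gene, with a KO1 median of -0.14 and none called, and 6 by the gene opposite, with a median of -0.51 and 5 called lower. The members opposite Ezh2, Hdac11, Bhlhe40, Brpf1 and Etv6 were lower and Ccdc77, opposite the histone demethylase gene Kdm5a, was not called at -0.22. In KO2 none of either kind was called.

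Of 40 RNA binding and translation symbols, 16 were members by the counted gene, with a KO1 median of -0.36 and 3 called lower, and 4 by the gene opposite, with a median of -0.54 and 3 called lower. Csda, a cold shock protein gene with no gene opposite, had 209 and 229 counts in wild type, 152 and 175 for KO1 and 246 and 242 for KO2, or -0.49 in KO1 (adjusted p = 0.00629). Gm17451, opposite the splicing factor gene Luc7l2, stood at -0.43 in KO1 (adjusted p = 2.63e-05). In KO2, 1 of the 16 was called, Emg1, and none of the 4.

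Of 20 glycolysis and metabolism symbols, 5 were members by the counted gene, Hk2, Slc6a6, Slc2a3, Tpi1 and Gapdh, with a median of -0.17 in KO1 and 1 called lower, and 0.35 in KO2 with 1 called higher, Tpi1. The 1 matched by the gene opposite, Aldh1l1, was called in neither line. Slc2a3, a glucose transporter gene in the Nanog neighbourhood, had 31 and 41 counts in wild type against 16 and 20 in KO1, and KO2 had 37 and 54. It fell by 1.06 on the log2 scale in KO1 (adjusted p = 0.0202), was not called in KO2 at 0.33, and differed between the lines by a departure of -1.0 (adjusted p = 0.0141, up to 0.188 over the alternatives). Gapdh had 44 and 75, 57 and 54, and 48 and 60 counts and was called in neither line. Phc1, a Polycomb gene near Nanog, was called in neither line, at -0.16 and -0.24. Of 12 symbols of that neighbourhood, 2 were members by the counted gene and 1, Foxj2, by the gene opposite.

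Of 28 cell cycle and genome maintenance symbols, 5 were members by the counted gene and 5 by the gene opposite. Among the latter only E230016M11Rik, opposite Gadd45a, was called in KO1, and of the former none. No member came from the 22 immune receptor and chemosensory symbols. Around the threshold, the members nearest to it were Asns, with 11 and 8 counts in wild type, with 10 and 6 in KO1 while KO2 had 14 and 11, and Paip2b, with a sum of 61. Just outside lay Tcf7l1 by the counted symbol and Znrf2, each with a sum of 59.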

How the data were processed

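RNA-seq counts per gene, deposited by the authors as raw counts with no normalization, were used for 6 libraries, and 44 of the 50 samples were not analysed here. Per the file headers, featureCounts 2.0.1 counted paired fragments over exons with strand setting 1 on mm9 with GENCODE mouse version 1. Per the submitters' processing notes, the tools included STAR 2.5.4b, featureCounts 2.0.0, Trim Galore 0.6.4 and bedtools 2.92.2.

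The gene opposite shared the most exon bases, 50 or more, on the other strand (bedtools 2.31.1). Counts were fitted in R 4.3.3 with edgeR 4.0.16: filterByExpr with a minimum count of 10, TMM, robust quasi-likelihood, 3 group means over 6 libraries, 3 residual degrees of freedom and a common biological coefficient of variation of 4.46%. All 227 members passed the filter. P-values were Benjamini-Hochberg adjusted over 5034 tested genes, and errors of log2 fold changes are standard errors. Departures used the median of each chromosome with at least 20 tested genes as an offset. DESeq2 1.42.0 was an alternative.

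The members, gene lists and naming rule were chosen with earlier results of these data known. Named were up to 10 non-overlapping departing members each way per comparison with at least 5 CPM, the 6 most abundant members, up to 4 per list, and the 2 on each side of the sum of 60. Members discussed outside this rule (Recql, Wdr54, Htra2 in KO1, the neighbours of Tlx2) were chosen after their values were seen. Some members that the rule or a count takes in are not reported here. The steps were tested on simulated counts with changes planted in single genes. The departure test recovered 61.2% of planted log2 changes of 1 in simulated KO1 and 60% in simulated KO2. For changes of 2 it recovered 93.9% and 98%. A member that was not called may thus still have changed.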

Additional observations from a re-analysis of the deposited data

Results flagged for a closer look

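The departures from the chromosome differed between the 2 lines for 20 named members, by the KO1 against KO2 test with adjusted p under 0.05. The values are log2 differences of KO1 from KO2 beyond the chromosome's median difference. Higher in KO1 were Gm15401 opposite Tcf7l1 at 1.76, the tubulin modifying enzyme gene Ttll3 at 1.45, Emg1 at 1.36, Gm15624 at 1.28, Copg2 opposite Mest at 1.23 and Pzp at 1.20. Gm15594 opposite Cttnbp2 stood at 1.10, BC060267 at 1.00, the glycoprotein processing gene Mogs at 0.952 and the mannose 6-phosphate receptor gene M6pr at 0.923. Without the chromosome's median taken off, the difference between the lines was not called for Gm15624, Gm15594, Mogs and M6pr. It was 0.89, 0.72, 0.57 and 0.54 in that order (adjusted p = 0.14, 0.15, 0.15 and 0.056).

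Lower in KO1 were 2810488G03Rik at -1.63, Gm14573 opposite Hdac11 at -1.49, Gm4876 opposite Tes at -1.41, Gm16567 opposite C1s at -1.11, AC140192.1 opposite Zfp248 at -1.06 and Slc2a3 at -1.0. 1700101I11Rik stood at -0.838, Il12rb2 at -0.826, Gm15737 opposite Adamts9 at -0.819 and Loxl3 opposite Htra2 at -0.801. Ttll3 had 17 and 18 counts in wild type, 20 and 26 for KO1 and 14 and 7 for KO2, and 2810488G03Rik had 18 and 14, 8 and 6, and 27 and 28. Neither was called against wild type in either line. Gm15624 lost its call with the shift taken by class (adjusted p = 0.0638). Of the 20 departures, 8 passed under every alternative: those of BC060267, Copg2, Emg1, Gm15401, Gm16567, Gm4876, Loxl3 and Pzp. Among the others, the adjusted p rose to 0.488 for 1700101I11Rik, 0.163 for Gm15594, 0.136 for Ttll3, 0.129 for Mogs and 0.116 for Gm15737.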

How the results depend on the processing

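No named departure changed direction. Of 804 values of the 54 named departures over the alternatives, 673 stayed past the threshold and 131 did not, 79 of these among the 324 from leaving out a library. DESeq2 gave a value for 48 of the 54 named departures, of which 23 kept their call and 25 lost it. The rest had no DESeq2 value and so no call. DESeq2 found 44 members called and 12 departing in KO1 (65 and 34 with edgeR). It found 8 called and 6 departing in KO2 (21 and 21), and 50 called and 26 departing between the lines (82 and 50). With the shift by class and chromosome, 21 departed in KO1.

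Leaving out 1 library gave 51 to 71 called and 15 to 40 departing in KO1, 11 to 21 called and 11 to 20 departing in KO2, and 56 to 85 called and 30 to 52 departing between the lines. Departures in KO1 numbered 22 without wild type replicate 1, 15 without KO1 replicate 1 and 18 without KO1 replicate 2. In KO2, 11 were called and 11 departed without wild type replicate 1, and between the lines 30 and 33 departed without KO1 replicate 1 or 2. A group left with 1 library was assumed to vary like the others.

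The median shift stayed between -0.478 and -0.408 in KO1, between -0.0704 and 0.00729 in KO2 and between -0.459 and -0.403 between the lines when 1 library was left out. With members of at least 300 counts it was -0.488, -0.0115 and -0.492, with members with a gene opposite -0.559, 0.00221 and -0.539, and relative to the same class on other chromosomes -0.478, 0.0134 and -0.486. With 1 member per group of overlapping genes it was -0.0982 in KO2. With TMM without chromosomes 6 and 11 and AY036118 it was 0.00565 in KO2 and -0.459 between the lines. The ratio of shares to wild type, 0.738 in KO1 and 0.958 in KO2, was 0.747 and 0.995 with AY036118 kept and 0.761 in KO1 without the 10 most abundant members. The cause of these changes was not tested.

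The replicate numbers did not pair the libraries: the correlations of same-numbered deviations were 0.0186, 0.00112 and 0.000938. With a replicate block, 34 members departed in KO1, 19 in KO2 and 50 between the lines. Depth limits the members with few counts: the median sum over the 6 libraries was 210.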
